A study of Mus musculus with 6 samples.

Results

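The genes described here encode the general transcription machinery of RNA polymerase II: the polymerase subunits (Polr2), the general transcription factors (Gtf2), the TBP-associated factors (Taf) and the subunits of Mediator (Med). They were chosen by gene symbol: a probe set counted if the platform annotation gave it a single symbol starting with Taf and a digit, Gtf2, Polr2, or Med and a digit. This took 147 probe sets of 80 genes, out of 34945 probe sets with 1 symbol and 45037 in all. No measured value enters that rule, but the family was proposed with the XY against XX results of these same arrays known. The counts and adjusted p-values below therefore describe this contrast and are not independent support for anything about the family.

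To start a transcript, TFIID, a complex of the TATA-binding protein and TAFs, settles on the core promoter together with TFIIA and TFIIB. Polymerase II then arrives with TFIIF, and TFIIE and TFIIH open the DNA and phosphorylate the tail of the largest polymerase subunit. Mediator carries signals from enhancer-bound factors to this assembly, and its kinase module binds it reversibly. A fully grown mouse oocyte has largely stopped transcribing and lives on stored mRNA, so an mRNA level here is what was stored, not how much is being made. In growing mouse oocytes the TBP paralog TBPL2, with TFIIA, takes over much of the work that TBP does elsewhere.

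Oocytes at the germinal vesicle stage, with an intact nucleus, were taken from B6.Y(TIR) mice, a strain in which animals carrying the Y can form ovaries: the XY females, and XX littermates of theirs. All females were 25 to 29 days old, had received 5 IU of equine chorionic gonadotropin and were killed 45 to 47 hours later. RNA of 10 denuded oocytes per female, from 3 XY and 3 XX females, was amplified from oligo(dT) primers and hybridised to 1 Affymetrix 3' expression array each. XY females carry a Y and a single X, and XX females have a second X and no Y, so the effects of the Y and of X number cannot be told apart between these groups. A level here is the array intensity after quantile normalization, and a change is the difference in log2(intensity + 9), XY minus XX, which understates the change of dim genes. Each sample held 10 oocytes, so their number was equal by design. For a subset of them, or for other cells carried along, fewer cells and less RNA per cell cannot be told apart in pooled RNA. Quantile normalization removes any difference in total mRNA.

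The 14 oocyte markers checked (among them Zp3, Gdf9 and Nlrp5) were all above the filter, and their summed deposited intensity was 63106 to 85056 in XY and 80955 to 111445 in XX. For granulosa and cumulus markers, 10 of 14 passed the filter, and the sum was 1225 to 1704 in XY and 1332 to 1836 in XX. For blood markers, 2 of 5 passed, and the sum was 218 to 262 in XY and 136 to 204 in XX. These sums are unscaled, and the trimmed mean of all probe sets was 194 to 262 in XY and 207 to 332 in XX. At a limma adjusted p of 0.05, 1 oocyte marker was higher in XY and 2 lower (21.4%, against 13.2% of all tested genes). Their groups did not overlap for 9 of 14 (64.3%, against 38.8%). Of the tested blood markers 1 of 2 was higher, and of granulosa and cumulus markers 0 of 10 were called. XX 1 stood apart from XX 2 and XX 3 and nearer the XY arrays in the control for RNA integrity: Actb signal at its 3' end over that at its 5' end came, in log2, to 5.90, 5.20 and 5.61 in XY 1, XY 2 and XY 3, and 5.53, 3.87 and 4.0 in XX 1, XX 2 and XX 3. The control for 18S ribosomal RNA at its 5' end read 896, 612 and 574 in XY, and 626, 3236 and 3620 in XX. There too XX 1 lay nearer the XY arrays than XX 2 and XX 3. The part of these differences in the results below was not tested beyond the fits given with the Actb ratio as a covariate and without XX 1.

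Of the 80 genes, 75 passed the filter on dim probe sets and were tested. At an adjusted p of 0.05 by limma over all 12442 tested genes, 4 rose and 5 fell, together 12% of the 75, against 13.2% of all tested genes (7.86% higher and 5.34% lower). The share called in the machinery was thus near that of the whole array. XY and XX values did not overlap for 33 of the 75 (44%), against 38.8% of all tested genes. The median log2 change of the members was 0.01, beside 0.07 over all tested genes. Changes ran from -1.53 for Taf7 to 1.29 for Polr2h. The genes that fell were Taf5, Taf4, Taf7, Taf3 and Taf1a, all TAFs, and those that rose were Gtf2b, Gtf2a1l, Polr2h and Med21.

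The medians and counts depended on the scaling. The all-gene median was -0.12 with the deposited values, -0.27 with median scaling and 0.18 with trimmed mean scaling, and the member median was -0.29, -0.46 and 0.02. The member median minus the all-gene median was -0.17, -0.18 and -0.16 under these, and -0.06 with quantile normalization. With the deposited values, median scaling and trimmed mean scaling, 1, 1 and 5 members were called higher and 5, 14 and 5 lower. That is 8%, 20% and 13.3% of members, against 8.05%, 16.9% and 16.1% of all tested genes. Without XX 1, 14 members rose and 12 fell (34.7%, against 27.4% of all tested genes in that fit). With the Actb ratio as a covariate, 0 members passed (limma, 1.90% of all tested genes passed), and without XY 3 also 0 passed (4.42% of all tested genes). In the 6-array fit, 28 of the 75 members had an unadjusted p under 0.05 (limma), against 4003 of all 12442 tested genes.

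**Figure D1:**
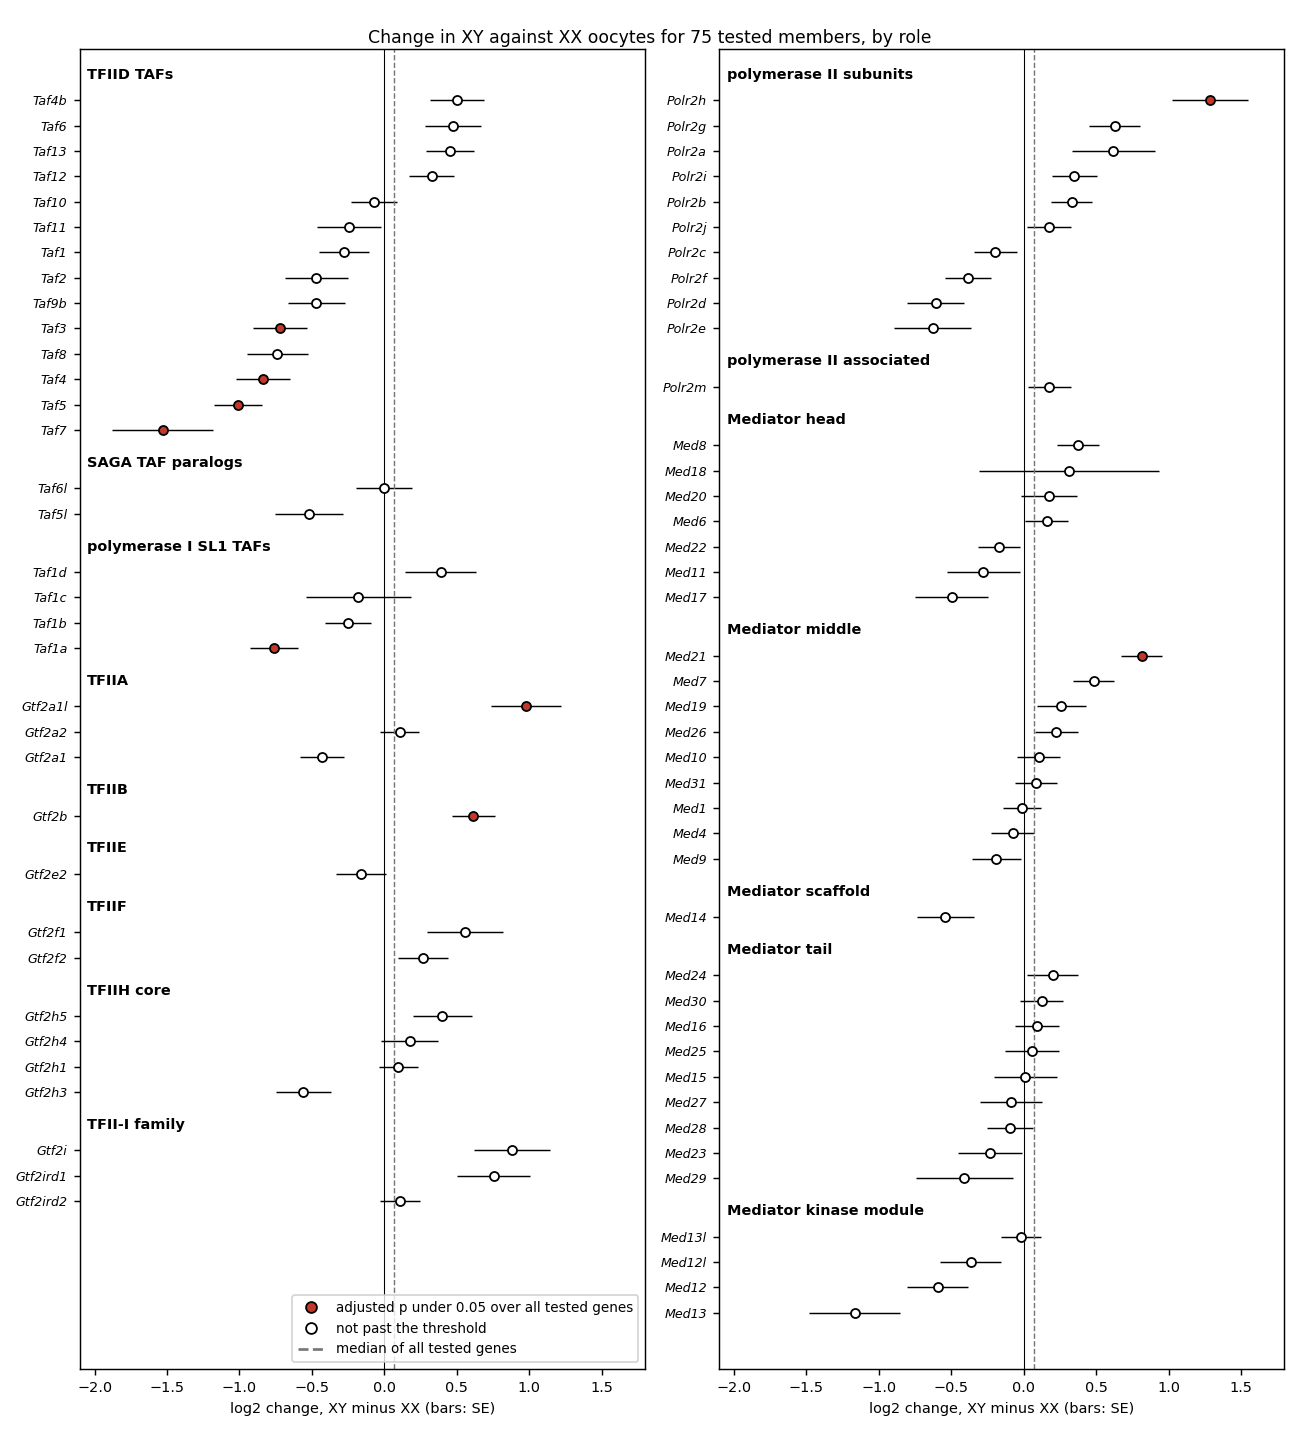
Log2 change (XY minus XX, horizontal axis, bars are SE) for the 75 tested members, grouped by role and sorted within each role. Filled points passed an adjusted p of 0.05 over all tested genes. The dashed line is the median of all tested genes, 0.07. All 5 filled points left of 0 are TAFs, 4 of them in TFIID.

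The 100 bases before the annotated start of the TFIID genes that fell are shown first, because these genes make up most of the falls described below. Their shared direction was fixed by choosing genes that fell. They are from RefSeq on GRCm38.p6, 5′ to 3′ on the gene's strand. Capitals mark matches to the motifs named after them. Taf7, which also fell, is described by its values alone.
Taf5, chr19:47067648-47067747, plus strand: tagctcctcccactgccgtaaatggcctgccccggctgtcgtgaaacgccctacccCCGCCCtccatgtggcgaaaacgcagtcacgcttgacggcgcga
Taf4, chr2:179976647-179976746, minus strand: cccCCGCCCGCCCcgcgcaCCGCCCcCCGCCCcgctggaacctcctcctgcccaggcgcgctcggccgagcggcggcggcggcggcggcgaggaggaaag
Taf3, chr2:10048610-10048709, minus strand: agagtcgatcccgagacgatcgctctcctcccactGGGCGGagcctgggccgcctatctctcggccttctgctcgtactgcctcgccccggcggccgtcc

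The 4 genes that rose are shown for comparison, as the first listed window of each. Polr2h has 2 listed windows. The listed window of Gtf2a1l lies inside the annotated gene, which begins at 88665493, so it precedes an internal start.
Gtf2b, chr3:142765147-142765246, plus strand: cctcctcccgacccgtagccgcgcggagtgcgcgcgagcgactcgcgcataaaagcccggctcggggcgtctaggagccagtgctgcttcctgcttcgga
Gtf2a1l, chr17:88668560-88668659, plus strand: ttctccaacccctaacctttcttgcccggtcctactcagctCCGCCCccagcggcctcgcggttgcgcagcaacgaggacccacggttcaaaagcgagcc
Polr2h, chr16:20717726-20717825, plus strand: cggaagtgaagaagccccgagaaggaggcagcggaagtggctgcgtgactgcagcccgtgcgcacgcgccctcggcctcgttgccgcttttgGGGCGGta
Med21, chr6:146642479-146642578, plus strand: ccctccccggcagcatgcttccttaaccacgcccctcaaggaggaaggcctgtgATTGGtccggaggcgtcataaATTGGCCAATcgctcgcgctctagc

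In these stretches the capitals are a GC box (GGGCGG or its reverse complement) in Taf5, Taf4, Taf3, Gtf2a1l and Polr2h, and a CCAAT box (CCAAT, either strand) in Med21. Taf4 holds 4 GC boxes, of which some overlap. Taf1a also fell but is no TFIID gene, and its 2 listed windows are not printed. Their 100 bases hold matches to CCAAT, the ETS motif CCGGAAG and the NRF1 core GCGCATGC, and no GC box. None of the 7 printed stretches holds TATAAA, and none is capitalised in Gtf2b, which says only that the searched letters are not there. Of the 80 members, 70 matched a promoter entry, and the 250 bases before the start were searched on both strands. The unmatched members were Gtf2e2, Med8, Med23, Med24, Med30, Polr2d, Polr2g, Taf2, Taf4b and Taf7.

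CpG content and short motifs were read from the same windows, over members and over other genes. The median ratio of observed to expected CpG was 0.814 over the members' windows, 0.695 over those of tested genes and 0.373 over all windows. A GC box was present for 44 of 70 members (62.9%), against 60.7% of 10018 tested genes with an entry and 32.7% of all windows. An ETS motif (CCGGAAG) was present for 18 members (25.7%, against 14.7% of tested genes and 6.91% of all windows). The NRF1 core (GCGCATGC) was present for 8 members (11.4%, against 4.87% and 2.26%), and the E-box (CACGTG) for 11 (15.7%, against 9.77% and 6.02%). A CCAAT box was present for 26 (37.1%, against 40.3% and 33.8%), TATAAA for 12 (17.1%, against 8.66% and 12.4%) and the YY1 core (GATGGCGG) for 0 (against 1.76% and 0.874%). The shares of members and of tested genes count a gene if any of its windows matched, whereas the last share counts windows. Counted by window, the members' shares were 57.1% (GC box), 22.6% (ETS), 11.9% (NRF1 core) and 14.3% (E-box). They were 34.5% for the CCAAT box, 14.3% for TATAAA and 0% for the YY1 core. A match is a description of the letters and not a bound site. No searched motif is contained in another, and neighbouring matches may overlap, as in Taf4.

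TFIID is the complex that recognises the promoter, and its TAFs were the role with most calls. Of 14 tested TFIID TAFs, 4 fell and 0 rose, 10 had a negative change and 4 a positive one. Their median log2 change was -0.37, beside 0.07 for all tested genes, and XY and XX did not overlap for 10 of the 14. That is 28.6% called and 71.4% not overlapping, against 13.2% called (5.34% lower) and 38.8% not overlapping over all tested genes. Without XX 1, 4 fell, and with the Actb covariate 0 did. The median lay below that of all tested genes under each of the 18 alternatives run, by -0.53 to -0.31.

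Taf5 encodes a WD40-repeat scaffold of the TFIID core. Its intensity was 1307, 1423 and 1253 in XY 1, XY 2 and XY 3, and 2243, 2831 and 3025 in XX 1, XX 2 and XX 3. Every XY array was below every XX array, and XX 1 was the lowest of the XX arrays. Taf5 fell by 1.01 ± 0.17 on the log2 scale (SE, limma adjusted p = 0.0134), to about 0.497 of its XX level. It passed in 16 of 18 alternatives, missing without XY 3 (adjusted p = 0.0522) and with the Actb covariate (0.0839).

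Taf4 encodes a histone-fold TAF that holds the TFIID core together. Its intensity was 661, 598 and 544 in XY, and 866, 1241 and 1165 in XX, with no overlap. It fell by 0.84 ± 0.19 (SE, limma adjusted p = 0.0302). Its other kept probe set changed by -0.28 ± 0.29 with overlapping groups, and the mean of both did not pass (0.140). The call also ended when any array other than XX 1 was left out, with an adjusted p of 0.0893 (XX 2 left out), 0.0879 (XX 3), 0.0650 (XY 1), 0.0911 (XY 2) or 0.0988 (XY 3).

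Taf7 encodes the TAF that binds TAF1 and restrains its acetyltransferase activity. Its intensity was 295, 116 and 177 in XY, and 718, 419 and 539 in XX, so that the spread within each group was wide but the groups did not overlap. It fell by 1.53 ± 0.35 (SE, limma adjusted p = 0.0318), the largest fall among the members. All 3 kept probe sets were lower in XY, with changes of -1.18, -1.53 and -2.35, and none overlapped. The probe set with -2.35 was dim in XY, at 24.7, 15.0 and 30.2, against 171, 149 and 141 in XX, and passed the filter through its XX arrays, so it is no support for the fall. Leaving out XX 1, XX 2 or XX 3 gave an adjusted p of 0.0510, 0.0593 or 0.0877, and leaving out XY 2 or XY 3 gave 0.0775 or 0.0865. It was 0.00921 with the deposited values, 0.00459 with median scaling and 0.0266 with trimmed mean scaling.

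Taf3 encodes the TAF whose PHD finger reads trimethylated lysine 4 of histone H3. Its intensity was 1759, 2039 and 1632 in XY, and 2407, 3359 and 3259 in XX, again without overlap. It fell by 0.72 ± 0.19 (SE, limma adjusted p = 0.0469), close to the threshold. It did not pass without XX 2 (0.127), XX 3 (0.125), XY 1 (0.117), XY 2 (0.0879) or XY 3 (0.138), nor with the deposited values (0.0541).

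The remaining TFIID TAFs did not pass. Taf8, which brings TAF10 into the complex, had intensities of 114, 84.1 and 110 in XY against 182, 137 and 218 in XX, without overlap, and a change of -0.74 ± 0.21 (limma adjusted p = 0.0602). Its other kept probe set had 28.1, 1.66 and 25.0 in XY against 43.3, 33.6 and 66.1 in XX, and passed the filter through the XX arrays, where it was higher, so it is no support for a difference. On the positive side stood the histone-fold TAFs Taf6 (0.48, but -0.04 with median scaling), Taf12 (0.33) and Taf13 (0.45), and Taf4b (0.50), the gonad-enriched paralog of Taf4 that female mice need for fertility. Taf4b passed in 0 of the 18 alternatives (limma) and had a change of 0.0095 with median scaling. All 4 had separate groups and adjusted p-values from 0.106 to 0.191. The changes of Taf2 (-0.47), Taf11 (-0.25) and Taf10 (-0.07) had overlapping groups.

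**Figure D2:**
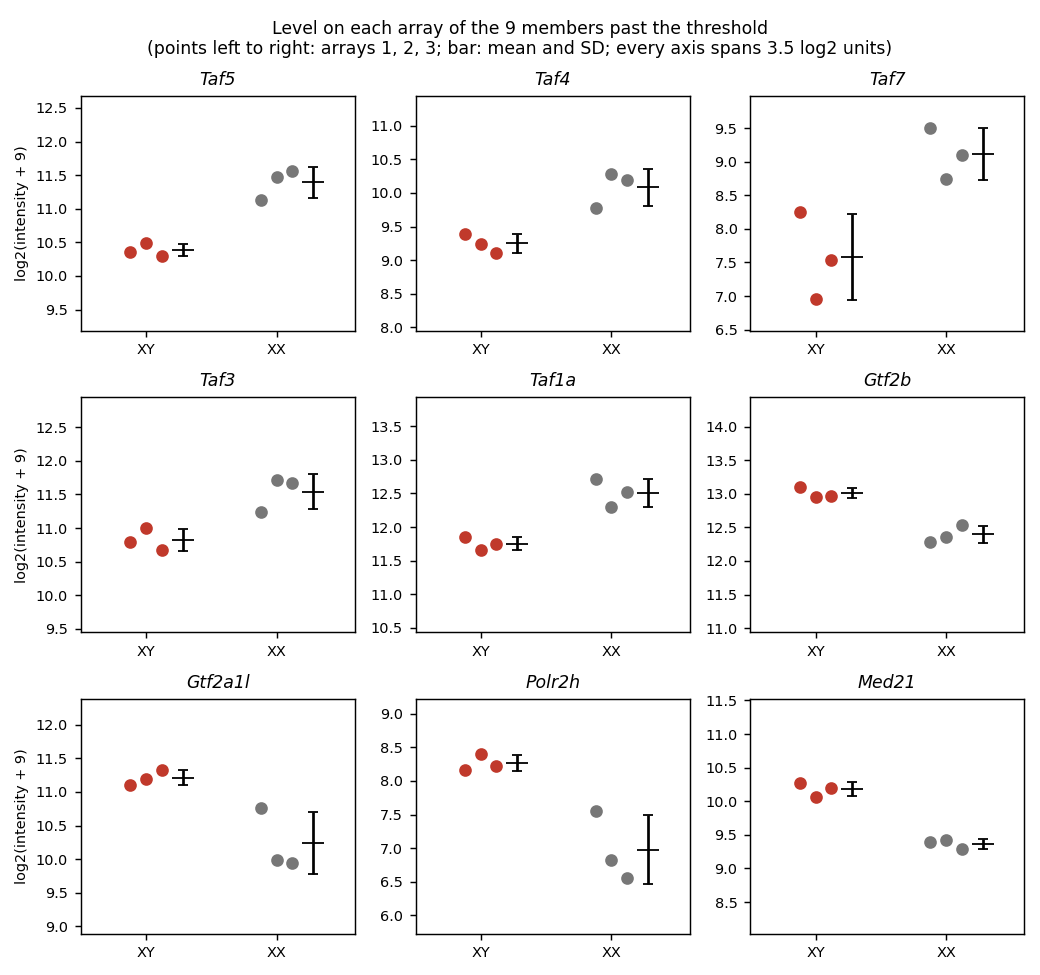
Level, as log2(intensity + 9), of the 9 members past the threshold on each array, XY left and XX right in each panel. Points are arrays 1, 2 and 3, and the bar is the mean with its SD. For Taf5, Taf4, Taf7, Taf3 and Taf1a the XY points lie below all XX points, and for the other 4 genes they lie higher than all of them.

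Further TAFs serve other complexes. Taf1a encodes a subunit of SL1, the selectivity factor that brings polymerase I to ribosomal RNA genes. Its intensity was 3682, 3209 and 3433 in XY, and 6719, 5036 and 5844 in XX, with the groups well apart. It fell by 0.76 ± 0.16 (SE, limma adjusted p = 0.0280). The call ended without XX 3 (0.0711), XY 1 (0.0673), XY 2 (0.0994) or XY 3 (0.0877). Its SL1 partners Taf1b (-0.25) and Taf1c (-0.18) did not pass. Taf1d had 0.39 from its brightest probe set, but -0.79 and -0.93 from 2 dimmer ones, and its direction was reversed as the mean of the 3 (-0.44). The SAGA subunits Taf5l and Taf6l, paralogs of Taf5 and Taf6 in a histone acetyltransferase complex, changed by -0.52 (adjusted p = 0.170) and -0.00.

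The factors TFIIA to TFIIH had 2 of 11 tested genes higher and 0 lower, and a median of 0.18. That is 18.2% called and 45.5% not overlapping, against 13.2% and 38.8% of all tested genes. Gtf2b encodes TFIIB, which bridges TBP and the polymerase. It had 8755, 7931 and 8037 in XY, and 4964, 5260 and 5940 in XX. These groups were narrow and apart. Gtf2b rose by 0.61 ± 0.15 (SE, limma adjusted p = 0.0367), or 1.53-fold. The rise depended on scaling, at 0.17 with median scaling (adjusted p = 0.673), and the call ended without XX 2 (0.0946), XX 3 (0.0538), XY 1 (0.111), XY 2 (0.106) or XY 3 (0.106).

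Gtf2a1l encodes a germ-cell counterpart of the large TFIIA subunit, which in mice is found mainly in testis and oocytes. Its intensity was 2202, 2335 and 2570 in XY, and 1732, 1008 and 977 in XX. XX 1 lay between the other XX arrays and the XY arrays. Gtf2a1l rose by 0.98 ± 0.24 (SE, limma adjusted p = 0.0410), or 1.97-fold, and by 0.45 with median scaling (0.221). The call ended without XX 2 (0.117), XX 3 (0.114), XY 1 (0.0883), XY 2 (0.106) or XY 3 (0.115). The widely expressed Gtf2a1 did not pass, with 808, 783 and 702 in XY and 958, 1165 and 983 in XX and a change of -0.43 (adjusted p = 0.103). All 3 of its kept probe sets were lower, at -0.43, -0.60 and -0.78. The small TFIIA subunit gene Gtf2a2 changed by 0.11 ± 0.13.

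No other general factor passed. The TFIIF genes Gtf2f1 (0.56) and Gtf2f2 (0.27) and the TFIIE gene Gtf2e2 (-0.16) had overlapping groups. The other probe set of Gtf2f1 changed by -0.71 with the groups apart, opposite to the brighter one. Among the TFIIH core genes, Gtf2h3 (-0.56) had separate groups, and Gtf2h5 (0.40), Gtf2h4 (0.18) and Gtf2h1 (0.09) did not. Gtf2i and Gtf2ird1, which share a Gtf2 symbol but encode DNA-binding regulators of the TFII-I family, had changes of 0.88 (adjusted p = 0.0656) and 0.76 (0.0859), each with separate groups. Gtf2i was dim, at 86.9, 74.2 and 75.1 in XY and 50.4, 22.5 and 48.3 in XX. Gtf2ird2 changed by 0.11.

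Of 10 polymerase II subunit genes tested, 1 rose and 0 fell, with a median of 0.25, and the groups did not overlap for 8. The share called was 10%, against 13.2% of all tested genes, and the share not overlapping 80%, against 38.8%. Polr2h encodes RPB8, which all nuclear RNA polymerases share. Its intensity was 278, 328 and 291 in XY, and 179, 104 and 84.9 in XX, where XX 1 was nearest to XY. Polr2h rose by 1.29 ± 0.26 (SE, limma adjusted p = 0.0238), or 2.44-fold, the largest rise among the members. It passed with each scaling, but not without XX 2 (0.0774), XX 3 (0.0636), XY 1 (0.0605), XY 2 (0.0768) or XY 3 (0.0659).

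The catalytic subunits did not pass. Polr2a, the largest subunit with the phosphorylated tail, had 112, 200 and 256 in XY, and 120, 104 and 117 in XX. XY 1 lay among the XX arrays, and the change was 0.62 ± 0.29 (limma adjusted p = 0.180). Polr2b, the second largest, was 0.33 ± 0.14 higher with separate groups (0.154). The stalk is formed by RPB4 and RPB7, and neither gene passed. Polr2g (RPB7) had 4623, 5552 and 5474 in XY against 4013, 3108 and 3043 in XX, a change of 0.63 (adjusted p = 0.0555), whereas Polr2d (RPB4) had 3104, 2605 and 2751 in XY against 3428, 5262 and 4384 in XX, a change of -0.61 (0.0789). Polr2g passed in 5 of 18 alternatives, and its change was 0.10 with median scaling (limma adjusted p = 0.791). Among the smaller subunits, Polr2i (0.35) and Polr2j (0.17) were on the positive side. The subunit genes Polr2c (-0.20), Polr2e (-0.63) and Polr2f (-0.39) were on the negative side, and only Polr2e had overlapping groups. The other kept probe set of Polr2f changed by 0.81 ± 0.47. Polr2m, a polymerase-associated regulator, changed by 0.18.

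Mediator, the largest of the role groups, had 1 gene past the threshold. Of 30 tested genes, 1 rose and 0 fell (3.33%, against 13.2% of all tested genes), and the median was -0.00. The groups did not overlap for 7 of the 30 (23.3%, against 38.8% of all tested genes). Med21 encodes a middle-module subunit that in yeast pairs with Med7. Its intensity was 1227, 1063 and 1164 in XY, and 661, 677 and 614 in XX, where XX 1 did not stand apart. Med21 rose by 0.81 ± 0.14 (SE, limma adjusted p = 0.0154), or 1.76-fold. The rise was 0.30 with median scaling (0.433), and the call ended without XY 1 or XY 3 (0.0583 each). Its partner Med7 had 2639, 2755 and 3088 in XY and 2095, 1946 and 2010 in XX, a change of 0.48 (adjusted p = 0.0643). With median scaling the change of Med7 was -0.05.

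The kinase module, which holds Mediator away from the polymerase, had 4 tested genes with a Med symbol. Each had a negative change and none was past the adjusted threshold (limma gave 2 an unadjusted p below 0.05). The module's kinase and cyclin genes lie outside the symbol rule, and they went both ways without passing. Cdk8 changed by 0.25 with separate groups. The dim Cdk19 (0.85) and Ccnc (-0.18) had overlapping groups. Med13, which tethers the module to Mediator, had 128, 173 and 249 in XY, and 275, 526 and 470 in XX. The change was -1.17 ± 0.32 (limma adjusted p = 0.0524), and it passed in 9 of 18 alternatives. All 3 kept Med13 probe sets were lower in XY without overlap, at -0.57, -1.17 and -1.20. Med12, which activates the kinase, changed by -0.59, Med12l by -0.37 and Med13l by -0.02. The last 2 had overlapping groups, and both turned positive with the Actb covariate (0.04 for each).

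In the other modules no gene passed apart from Med21. Head genes ran from -0.50 for Med17 to 0.37 for Med8, and tail genes from -0.41 for Med29 to 0.20 for Med24. Med18 had 700, 696 and 607 in XY but 1614, 399 and 234 in XX, where XX 1 alone was above the XY arrays. Med1, which binds nuclear receptors, had a change of -0.01 from its brightest probe set, while the other 4 kept ones gave -1.36, -1.12, -0.44 and 0.19. The one with -1.36 was dim in XY, at 24.4, 19.4 and 38.3, against 68.6, 82.1 and 98.5 in XX. Such disagreement was common: of 25 members with several kept probe sets, 10 had changes of both signs, among them Med6, Med20, Med25, Med28, Med13l and Taf10.

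**Figure D3:**
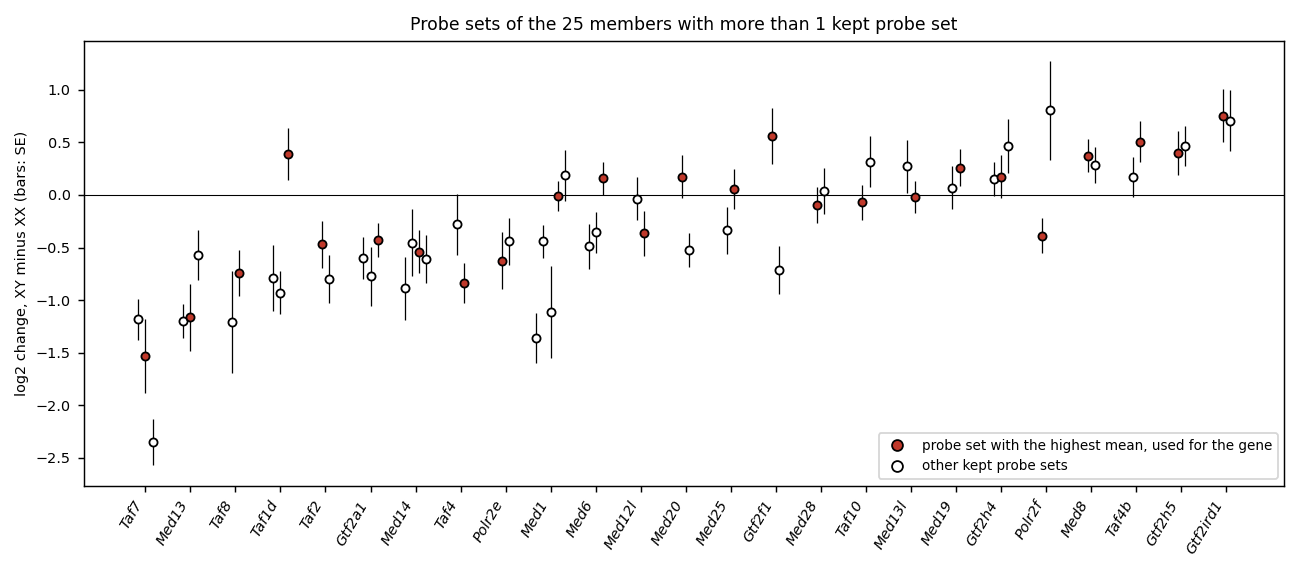
Log2 change (XY minus XX, bars are SE) of each kept probe set for the 25 members that had more than 1. Filled points are the probe set used for the gene. Taf7, Med13, Med14 and Gtf2a1 keep to 1 side of 0, whereas Med1, Taf1d, Gtf2f1 and Polr2f lie on both.

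X-linked members numbered 4 among those tested, and all 4 had negative changes, with 0 past the adjusted threshold (limma gave 3 an unadjusted p below 0.05). Their median was -0.51, beside 0.08 for the 71 autosomal members and -0.28 for all 375 tested X-linked genes. Of those 375, 247 had negative changes, 95 were called lower and 16 higher, together 29.6%. Med14, the backbone of Mediator, had 282, 198 and 296 in XY, and 394, 332 and 401 in XX, a change of -0.54 (limma adjusted p = 0.106), and all 4 of its kept probe sets were lower. Med12 had 272, 318 and 246 in XY, and 335, 418 and 539 in XX (adjusted p = 0.101). Taf9b, a paralog of Taf9, had 1723, 1850 and 1619 in XY, and 1975, 2259 and 3091 in XX, a change of -0.47 (0.150). Taf1, the largest TAF and the binding partner of TAF7, had 223, 161 and 159 in XY, and 214, 226 and 216 in XX, where XY 1 overlapped XX (-0.28, adjusted p = 0.307).

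Role groups were also set against all genes on each array, by centring each gene over the 6 arrays and taking the group's median minus that of all tested genes. For TFIID TAFs this was -0.20, -0.22 and -0.33 in XY 1, XY 2 and XY 3, and 0.11, 0.12 and 0.28 in XX 1, XX 2 and XX 3. For the other TAFs it was -0.05, -0.12 and -0.15 in XY, and 0.28, 0.13 and 0.32 in XX. In both groups of TAFs all XY arrays lay below all XX arrays. For the TFII-I family it was 0.48, 0.32 and 0.09 in XY, and -0.12, -0.10 and -0.14 in XX. For polymerase II subunits it was 0.00, 0.08 and 0.06 in XY, and -0.04, -0.03 and -0.19 in XX. In these 2 groups all XY arrays lay higher than all XX arrays. For the factors TFIIA to TFIIH it was 0.05, 0.00 and 0.05 in XY, and 0.04, -0.25 and -0.08 in XX. In that group XX 1 lay among the XY arrays. For Mediator it was 0.00, 0.01 and -0.08 in XY, and -0.18, 0.09 and 0.10 in XX. There the XX arrays spanned the XY arrays, with XX 1 lowest.

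**Figure D4:**
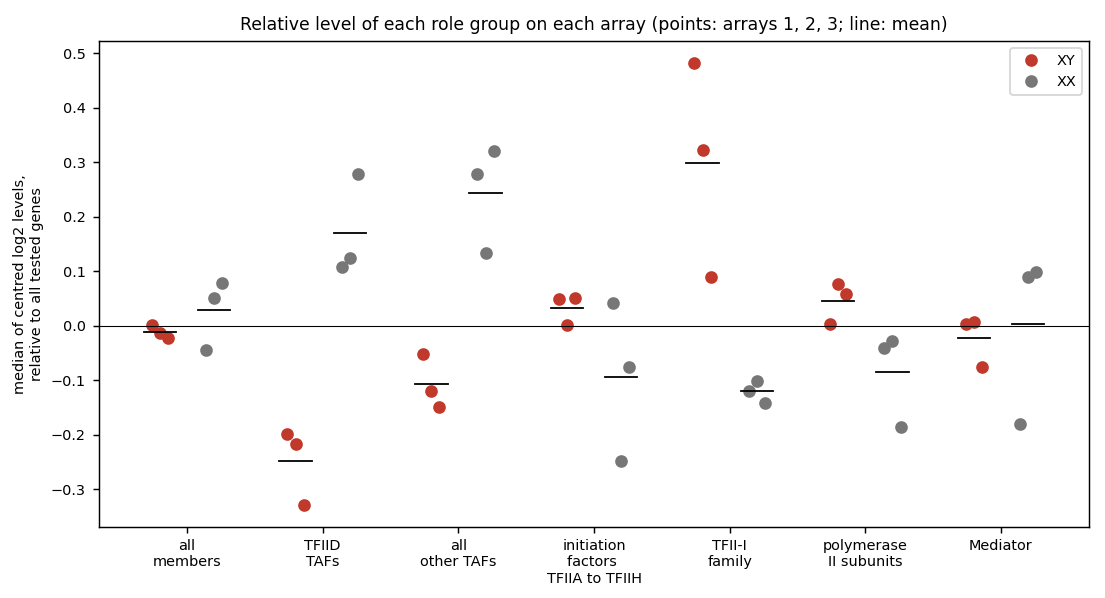
Median of centred log2 levels per role group, relative to all tested genes (vertical axis), on each array, XY left and XX right of each label. Points are arrays and lines are means. TFIID TAFs run from -0.33 to -0.20 in XY and from 0.11 to 0.28 in XX, and the Mediator points overlap.

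Within paralog pairs, the difference between the log2 levels of the 2 genes was compared between XY and XX for the 6 pairs with both genes tested. Exact two-sided permutation tests on 3 against 3 arrays cannot give a p below 0.1. For Taf4b minus Taf4 the difference was 0.14, 0.64 and 0.74 in XY, and -0.53, -0.79 and -1.18 in XX. It was 1.34 higher in XY, in 3 of 3 arrays against each XX array (exact permutation p = 0.1, 0.15 adjusted over 6 pairs). For Gtf2a1l minus Gtf2a1 it was 1.41 higher in XY and for Med13l minus Med13 1.15 higher, with the same p-values and no overlap. In the Taf4 and Gtf2a1 pairs each gene alone already had separate groups, in opposite directions. The separation of their difference and its exact permutation p were thus fixed in advance and add nothing to the single genes. Taf5l minus Taf5 was 0.49 higher, also without overlap (exact permutation p = 0.1, adjusted 0.15). Med13 and Taf5 alone already had separate groups, while Med13l and Taf5l overlapped. The separation in the Med13 and Taf5 pairs is thus not independent of those single genes. Taf6l minus Taf6 (-0.48, exact permutation p = 0.4) and Med12l minus Med12 (0.23, exact permutation p = 0.2) overlapped.

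**Figure D5:**
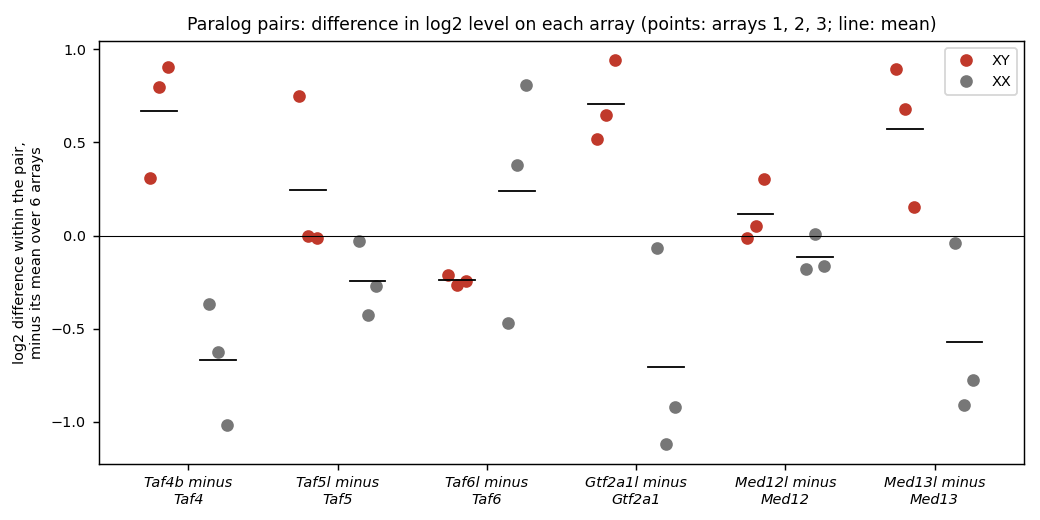
Difference in log2 level between the 2 genes of each paralog pair, minus its mean over the 6 arrays, XY left and XX right of each label. Points are arrays and lines are means. The XY points lie above the XX points for Taf4b and Taf4, Taf5l and Taf5, Gtf2a1l and Gtf2a1, and Med13l and Med13.

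The 5 members below the filter were Gtf2e1, Taf15, Taf7l, Taf7l2 and Med9os, which is an antisense transcript and no Mediator subunit. Their intensities were at most 27.9 on any array, and no comparison is drawn. Taf7l, an X-linked germ-cell paralog of Taf7, had 10.5, 9.59 and 10.5 in XY and 26.0, 4.84 and 1.29 in XX. Taf9, Polr2k and Polr2l were not analysed here, because their probe sets carry several symbols.

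Partners of the machinery outside the symbol rule were taken from listed genes. Of 5 tested genes for TBP, its paralogs and its regulators, none passed (limma, 1 at an unadjusted p under 0.05). The list had 6 genes. Tbpl2, the gene of the oocyte paralog TBPL2, had no probe set with a single symbol, so nothing is known of it here. Tbp itself had 1368, 1283 and 1293 in XY and 1063, 1489 and 1522 in XX, a change of -0.03 (limma adjusted p = 0.926). Its paralog Tbpl1 was dim and changed by -1.08 ± 0.46 (0.156). Of 8 genes for the kinases, cyclins and helicases of TFIIH and Mediator and their partners, 1 rose and 0 fell. That is 12.5% called, against 13.2% of all tested genes. Ccnh, the cyclin of the TFIIH kinase, had 8638, 8354 and 6759 in XY and 4817, 3918 and 3669 in XX, a rise of 0.94 ± 0.18 (adjusted p = 0.0193). Of 27 pausing and elongation genes, 3 rose and 1 fell (14.8%, against 13.2% of all tested genes), with a median of 0.10. The 7SK RNA-binding gene Larp7 (0.97), the elongation cofactor Eaf1 (0.87) and the PAF complex gene Leo1 (0.66) rose, and the kinase gene Cdk13 fell by 0.998. Settings other than the main scaling, filter and arrays were not run for these partners.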

How the data were processed

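The authors deposited linear intensity values, 1 for each probe set on each array. MAS5 is named in the submitters' processing notes, with no version or role. Columns carry the 6 samples. The deposited intensity medians ran from 24.5 to 31.4, so arrays were quantile normalized, without 64 control probe sets. The planned design named this scaling. Values were log2(intensity + 9), 9 being the 25th percentile of the deposited values. Probe sets that reached the median of the array in 3 or more of the 6 arrays were kept (22997), and a gene was represented by its brightest one on average (12442 genes). The XY minus XX difference was fitted with limma 3.58.1 in R 4.3.3 (lmFit, eBayes), with Benjamini-Hochberg adjustment over all tested genes at 0.05. The labels call the arrays biological replicates, and 3 arrays per group limit the precision of every value. The code was tested on simulated data.

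Symbols came from the platform annotation, with chromosomes and promoters from RefSeq, GRCm38.p6. Members and gene lists were chosen with earlier results of these data known. Named were members past the threshold, the 2 largest changes in each role, Polr2a, X-linked members, listed paralog pairs, Tbp, Tbpl1 and called partners. Genes named beyond this were chosen after their values were seen. Same-numbered arrays did not deviate together (correlations of -0.10, 0.00 and -0.04 for numbers 1, 2 and 3), so the numbers were not treated as pairs. Alternatives changed the pseudocount, the scaling, the dim-probe filter, the choice among probe sets, weights and variance trend, added a replicate block or the Actb ratio, or left out 1 array.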

Additional observations from a re-analysis of the deposited data

How the results depend on the processing

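Of the 18 alternatives, 12 changed a setting and 6 left out an array. The 9 called members kept their direction in each. Their XY and XX values did not overlap, so in the 6 fits without an array that direction was all but fixed in advance. Of the values for single named members, 529 stayed on their side of the threshold, 69 lost a call, 44 gained one and 23 reversed. Members called higher, 4 in the reported fit, numbered 1 with the deposited values, 1 with median scaling, 7 with a pseudocount of 32, 2 without the filter, 7 with the 70th percentile filter, 9 with a variance trend and 10 with array weights. Members called lower, 5 in the reported fit, numbered 14 with median scaling, 1 without the filter, 8 with the 70th percentile filter, 8 with a variance trend and 12 with array weights. The share of all tested genes called moved too. In either direction, 18.7% of members and 17.5% of all tested genes were called with a pseudocount of 32. These shares were 3.75% and 5.02% without the filter, and 20.5% and 25.8% with the 70th percentile filter. They were 22.7% and 19.6% with a variance trend, and 29.3% and 26.2% with array weights. With the Actb ratio as a covariate, 0 were called higher and 0 lower (limma). Leaving out 1 array gave 0 to 14 higher, 0 to 12 lower and 0 to 4 TFIID TAFs lower, with the highest counts without XX 1 and 0 without XY 3. In these fits 0% to 34.7% of members were called, and 3.92% to 27.4% of all tested genes. TFIID TAFs called lower numbered 1 without the filter and 0 with the Actb covariate. The member median was -0.29 with the deposited values, -0.46 with median scaling, and 0.0047 to 0.060 with 1 array left out. With the replicate number as a block, 0 members were called higher, 3 lower and 2 TFIID TAFs lower, and over all genes 424 higher and 255 lower, against 978 and 665 without the block. The numbers are shared by name alone, so a call lost there is not read as a weaker effect. Reversed with the deposited values were Gtf2f2 (-0.020) and Polr2m (-0.000094). Reversed with median scaling were Taf1d (-0.073), Gtf2f2 (-0.18), Gtf2h5 (-0.14), Polr2m (-0.15), Med8 (-0.15), Med7 (-0.055) and Taf6 (-0.038). With the mean of probe sets these were Taf1d (-0.44), Gtf2f1 (-0.076) and Med13l (0.13). With the Actb covariate they were Taf6l (0.30), Taf1d (-0.12), Med29 (0.16), Med23 (0.19), Med12l (0.039) and Med13l (0.041). Leaving out an array reversed Taf6l, to between 0.0047 and 0.15, and Med13l, which ran from -0.053 to 0.044 and was positive without XY 1. The cause was not tested. Dim probe sets limit what can be seen: 5 members lay below the filter.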

Other observations

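The other nuclear RNA polymerases share small subunits with polymerase II and are assembled from related parts. Of 15 tested polymerase I and III subunit genes, 2 rose and 2 fell. Their median log2 change was 0.07, and 26.7% were called, against 13.2% of all tested genes. Polr3g, the subunit of polymerase III known from mouse stem cells and early embryos, had intensities of 41.8, 29.9 and 33.9 in XY, and 6.93, 10.7 and 5.60 in XX. It is 1 of the 2 counted as higher, but it passed the filter only through its XY arrays, so that count is a description and its test is not given. Polr3k, a small polymerase III subunit gene, rose by 0.80 ± 0.20 (0.0410), with 8221, 8212 and 7895 in XY, and 6108, 4209 and 3907 in XX. Polr3b, the second largest subunit of polymerase III, fell by 0.87 ± 0.17 (0.0193), and Polr3f by 0.86 ± 0.21 (0.0414).

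Of 14 polymerase III factor genes, none passed (limma, 1 at an unadjusted p under 0.05), and the median was -0.11. Of 13 tested subunits of SAGA, the acetyltransferase complex that shares TAFs with TFIID, 0 rose and 1 fell. That was Tada2b, an adaptor of its acetyltransferase module, with 30.4, 32.7 and 42.5 in XY and 97.2, 88.6 and 86.8 in XX, a fall of 1.18 ± 0.16 (limma adjusted p = 0.00833). XY and XX did not overlap for 9 of the 13. That is 7.69% called and 69.2% not overlapping, against 13.2% and 38.8% of all tested genes. These values were computed in the main setting alone.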
